A study of Homo sapiens with 4 samples.

Results

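Chromosome 2 carried 254 of the 4698 peaks in the deposited peak lists of a chromatin immunoprecipitation sequencing (ChIP-seq) study of lactylated lysine 5 of histone H4 (H4K5la) in the human neuroblastoma line SH-SY5Y. Every chromosome 2 peak was taken and assigned by its centre on hg38: 153 peaks lay on the short arm (2p, below position 92035127), 101 lay on the long arm (2q, above position 94192531) and 0 lay between them. The groups were WT SH-SY5Y cells and SH-SY5Y cells labelled DNAJC12KO, a knockout of DNAJC12, which is a co-chaperone of the enzymes that hydroxylate aromatic amino acids. Each group had 1 H4K5la library and 1 input library, and 1 peak list was available for each genotype. No drug or stimulus is named in the labels, which also do not say whether the knockout cells were 1 clone or a pool. The WT list held 106 chromosome 2 peaks of 1943, and the DNAJC12KO list held 148 of 2755. Because each genotype had 1 list, differences between genotypes have no replicates behind them and were not tested. The 95% intervals below are exact Clopper-Pearson intervals that cover counting error only, and the sequencing depth behind the lists is unknown.

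Lysine lactylation is an acyl mark derived from lactate that is found on histones and has been linked to glycolytic activity and to active chromatin. The distal part of 2p holds MYCN and ALK, the best known oncogenes of neuroblastoma, and extra copies of 2p are a frequent change in this tumour. SH-SY5Y does not carry the high-level MYCN amplification of some other neuroblastoma lines, but has been described with extra copies of parts of 2p, 7 and 17q. Copy number was not measured in the data used here, so the label "gained" could not be checked directly.

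The promoters shown here introduce where chromosome 2 peaks sat in relation to gene starts. They are RefSeq sequences on GRCh38.p14, each from 250 bases before an annotated start to 30 bases after it. SNORC, which encodes a small membrane proteoglycan of cartilage, is shown because its promoter window at chr2:232870014-232870293 (plus strand) was the only one on chromosome 2 that any peak overlapped; the 16 capitals mark the bases covered by a DNAJC12KO peak. KCNF1, a voltage-gated potassium channel subunit (chr2:10911684-10911963, plus strand), led the 2p genes with a WT peak at an end. SPEG, a muscle kinase (chr2:219434593-219434872, plus strand), led the same list on 2q. In KCNF1 and SPEG the capitals mark CG pairs.
SNORC: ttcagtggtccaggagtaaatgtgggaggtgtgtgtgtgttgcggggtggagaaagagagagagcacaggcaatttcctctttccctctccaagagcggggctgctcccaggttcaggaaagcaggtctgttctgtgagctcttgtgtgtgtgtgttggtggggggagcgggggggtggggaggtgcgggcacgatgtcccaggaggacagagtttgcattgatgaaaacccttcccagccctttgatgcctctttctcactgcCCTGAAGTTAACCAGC
KCNF1: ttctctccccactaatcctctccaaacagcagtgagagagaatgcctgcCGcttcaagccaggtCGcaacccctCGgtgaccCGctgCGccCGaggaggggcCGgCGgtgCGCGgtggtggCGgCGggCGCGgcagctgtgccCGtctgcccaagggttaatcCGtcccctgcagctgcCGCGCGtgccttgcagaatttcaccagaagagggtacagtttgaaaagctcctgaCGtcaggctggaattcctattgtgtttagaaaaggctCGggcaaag
SPEG: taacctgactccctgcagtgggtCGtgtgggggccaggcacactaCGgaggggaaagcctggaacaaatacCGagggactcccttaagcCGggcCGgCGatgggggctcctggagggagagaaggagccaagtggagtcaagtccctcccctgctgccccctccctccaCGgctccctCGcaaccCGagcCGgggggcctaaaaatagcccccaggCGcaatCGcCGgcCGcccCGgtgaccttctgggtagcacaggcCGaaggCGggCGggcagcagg
The 300-base SNORC window was 57.7% G or C and held 9 CG pairs, against medians of 57.3% and 12 CG pairs over the 2756 chromosome 2 promoter windows. The KCNF1 window had 22 CG pairs at 61.3% G or C, and the SPEG window had 20 at 69.0%. The nearest WT peaks began 1233 bp past the KCNF1 start and 566 bp past the SPEG start, so the printed letters are the promoters and not the peaks.

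Short-arm peaks were concentrated beyond their share of the chromosome in both genotypes. The 2p arm spans 92.0 Mb, 38.3% of the length of both arms together, and holds 471 of the 1254 protein-coding genes, or 37.6%. In the WT list, 71 of 106 peaks lay on 2p, a share of 67.0% (57.2 to 75.8%). In the DNAJC12KO list, 82 of 148 lay there, a share of 55.4% (47.0 to 63.6%). Both intervals lie above the length and gene shares. The density on 2p was 0.771 peaks per Mb in WT and 0.891 in DNAJC12KO, against 0.237 and 0.446 on 2q. The ratio of 2p to 2q density was 3.26 in WT (2.15 to 5.04) and 2.00 in DNAJC12KO (1.43 to 2.81), from the exact intervals of the shares. Per 100 protein-coding genes, 2p held 15.1 WT and 17.4 DNAJC12KO peaks, and 2q held 4.47 and 8.43.

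The raised density lay within the outer 50 Mb of 2p, counted from the telomere, but was not even across it. This division was made after the peak positions were seen. That segment held 65 of the 71 WT peaks and 72 of the 82 DNAJC12KO peaks of the arm, or 1.30 and 1.44 peaks per Mb. Within it, the bin from 30 to 35 Mb held only 1 WT and 2 DNAJC12KO peaks. The bin from 35 to 40 Mb held 0 in both lists. The inner part of 2p held only 6 WT and 10 DNAJC12KO peaks, although it carries 208 protein-coding genes against 263 in the outer part. Its 2.88 and 4.81 peaks per 100 genes were near the 2.90 and 4.01 of inner 2q (13 and 18 peaks over 449 genes). On 2q, the outer 50 Mb also exceeded the inner part, with 22 WT and 48 DNAJC12KO peaks (6.59 and 14.4 per 100 genes). The plot of peaks along the chromosome shows both ends raised and a long sparse middle.

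**Figure D1:**
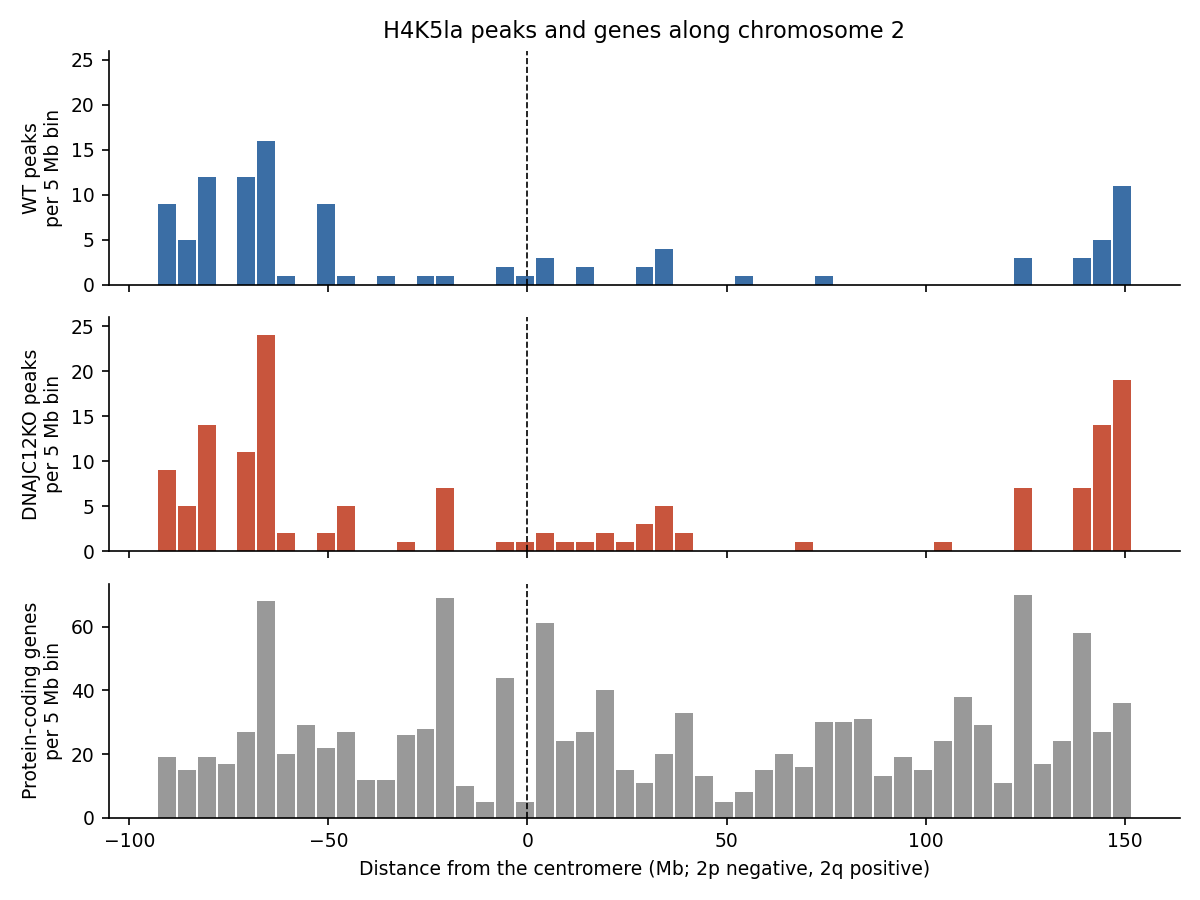
Peaks per 5 Mb bin in the WT list (top) and the DNAJC12KO list (middle), and protein-coding genes per bin (bottom), against distance from the centromere in Mb, with 2p to the left. Both lists peak in the same 2p bin, with 16 WT and 24 DNAJC12KO peaks, and the bin with 69 genes nearer the centromere holds 1 and 7.

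Within distal 2p the peaks came in blocks. The densest 5 Mb bin was 25 to 30 Mb, with 16 WT and 24 DNAJC12KO peaks over 68 protein-coding genes; it contains DNMT3A, a DNA methyltransferase, and the gene-dense stretch from MAPRE3 to IFT172. The bin from 10 to 15 Mb had 12 WT and 14 DNAJC12KO peaks over only 19 genes, among them RRM2, HPCAL1, KCNF1 and GREB1. The bin from 20 to 25 Mb had 12 and 11 peaks over 27 genes and includes SDC1, KLHL29 and ATAD2B. The most telomeric bin, 0 to 5 Mb, had 9 peaks in each list over 19 genes. The lists were less alike from 40 to 45 Mb, with 9 WT and 2 DNAJC12KO peaks, and from 45 to 50 Mb, with 1 and 5. On inner 2p, the bin from 70 to 75 Mb has 69 protein-coding genes and held 1 WT and 7 DNAJC12KO peaks. The relation of peak number to gene number over the bins was not tested. At 1 Mb resolution, 7 bins of 2p had at least 3 peaks in each list, at 3, 10, 11, 23, 24, 25 and 27 Mb. The fullest in WT, from 10 to 11 Mb, had 8 WT and 9 DNAJC12KO peaks, and the fullest in DNAJC12KO, from 25 to 26 Mb, had 5 and 10. On 2q such bins numbered 2, both in the last stretch before the telomere, where 240 to 241 Mb held 4 WT and 16 DNAJC12KO peaks and 241 to 242 Mb held 7 and 3.

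MYCN lay in a gap, and ALK had no peak in its record. Most genes of the outer 50 Mb of 2p had none, since 13.3% in WT and 14.1% in DNAJC12KO carried a peak. The bin from 15 to 20 Mb, which contains MYCN, had 0 peaks in both lists, and MYCN was inside a stretch of 8.19 Mb, from 11.9 to 20.1 Mb, with no peak and 21 protein-coding genes. MYCN, a transcription factor at chr2:15940550-15947004, was 4031 kb from the nearest WT peak and 4090 kb from the nearest DNAJC12KO peak. Its frequent co-amplified neighbours DDX1, an RNA helicase, and NBAS, a membrane trafficking protein, were 3682 and 2869 kb from a WT peak. ALK, a receptor tyrosine kinase at chr2:29192774-29921586, had its nearest peaks 522 kb away in WT and 182 kb away in DNAJC12KO. SOX11, a neural transcription factor, was 33.4 kb from a WT peak and 388 kb from a DNAJC12KO peak. ODC1, the first enzyme of polyamine synthesis, was 51.6 and 7.76 kb away.

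Peak-free stretches longer than 5 Mb in both lists numbered 6 on 2p, covered 51.8 Mb and held 181 protein-coding genes. The widest ran from 74.4 to 85.2 Mb and includes CTNNA2, an adhesion protein of neurons, and HK2, the hexokinase of many tumours. A stretch of similar width from 31.3 to 41.9 Mb includes BIRC6, LTBP1 and SLC8A1. The stretch from 55.0 to 64.4 Mb includes REL, BCL11A and XPO1. On 2q, 9 such stretches covered 116 Mb with 441 genes. The widest, 28.5 Mb from 167.3 to 195.8 Mb, contains the HOXD cluster, DLX1, DLX2 and NEUROD1.

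Short-arm peaks had a lower fold enrichment and stood on a higher background than long-arm peaks. Fold enrichment is the authors' value for each peak, on a linear scale. Its median was 3.58 (WT) and 3.56 (DNAJC12KO) on 2p, and 3.91 and 3.77 on 2q. The median −log10 q was 1.43 and 1.41 on 2p against 1.50 and 1.52 on 2q, and the median widths on 2p, 385 and 465 bp, were close to the 389 and 447 bp of 2q. In WT, 7 of 71 peaks on 2p (9.86%) and 13 of 35 on 2q (37.1%) had a fold of 4 or more. In DNAJC12KO, 5 of 82 (6.10%) and 12 of 66 (18.2%) did. Among peaks of at least that fold the ratio of 2p to 2q density was 0.866 in WT and 0.670 in DNAJC12KO. These ratios rest on 20 and 17 peaks and have no interval, so a turn in direction cannot be told from counting error. Among peaks whose −log10 q was 2 or higher it was 1.07 over 10 WT peaks and 1.93 over 11 DNAJC12KO peaks. The excess on 2p was thus seen among peaks with a fold under 4. It was not seen among those at or above that fold, which were too few to tell whether the excess depends on fold.

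For every peak a local background was computed back from its deposited fold and −log10 p, taking both as averages of what MACS2 usually reports; it is approximate, is not independent of the fold, and is given in fragments overlapping a position. Its median was 2.00 in WT (quartiles 1.86 and 2.35) and 2.26 in DNAJC12KO (2.02 and 2.62) in the outer 50 Mb of 2p. Over the other chromosome 2 peaks it was 1.55 (1.43 and 1.67) and 1.61 (1.53 and 1.73). The ratio of these medians was 1.29 in WT and 1.41 in DNAJC12KO. In the outer 50 Mb of 2p, 60 of 65 WT peaks (92.3%) and 67 of 72 DNAJC12KO peaks (93.1%) lay above their own list's median over all chromosomes. Elsewhere on chromosome 2, 13 of 41 (31.7%) and 18 of 76 (23.7%) did. Inner 2p, with medians of 1.57 and 1.51, was close to outer 2q, with 1.59 and 1.61. The inferred values pile up at a floor: the lowest over all chromosomes was 1.35 in WT and 1.50 in DNAJC12KO. Within 5% of it lay 24.4% and 39.5% of the other chromosome 2 peaks, against 1.54% and 2.78% in the outer 50 Mb of 2p. The medians outside distal 2p, and the ratios to them, are therefore limited by this floor. Outer 2q had a raised DNAJC12KO density with a median background not far above the floor, whereas distal 2p had a raised density and a higher median.

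Of the chromosomes with at least 20 peaks in a list, 17 and 7 had the highest median backgrounds, at 1.95 and 1.93 in WT and 2.15 and 2.16 in DNAJC12KO; they also held the most peaks per gene, with 24.6 and 35.7 WT peaks per 100 protein-coding genes against 9.67 over all chromosomes. Chromosome 2 as a whole was the third in WT and the fourth in DNAJC12KO by background, with medians of 1.86 and 1.81, but held 8.45 and 11.8 peaks per 100 genes, below the 9.67 and 13.7 over all chromosomes. The part of local background, and of copy number, in the peak density of distal 2p was not tested.

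**Figure D2:**
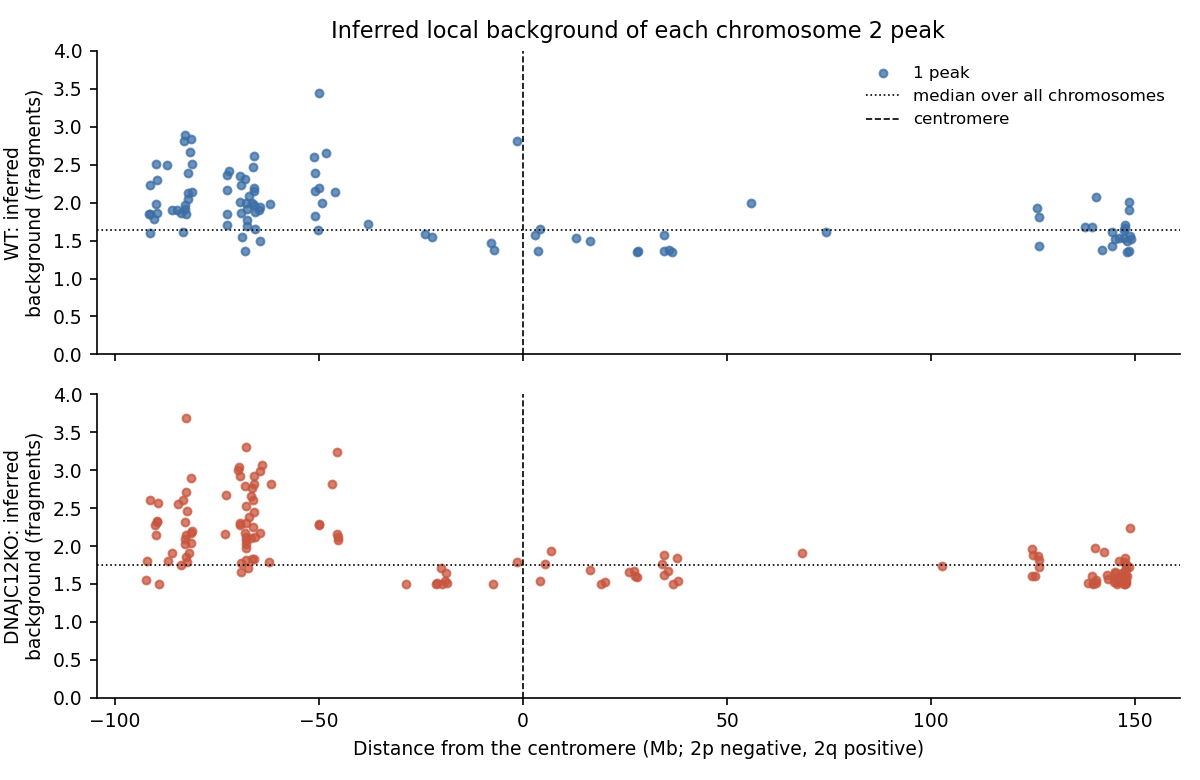
Inferred local background of each chromosome 2 peak (1 point a peak), in fragments overlapping a position, against distance from the centromere in Mb, for WT (top) and DNAJC12KO (bottom); the dotted lines are the medians over all chromosomes, 1.64 and 1.75. The points of the outer 50 Mb of 2p lie mostly above the dotted line, with medians of 2.00 and 2.26.

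**Figure D3:**
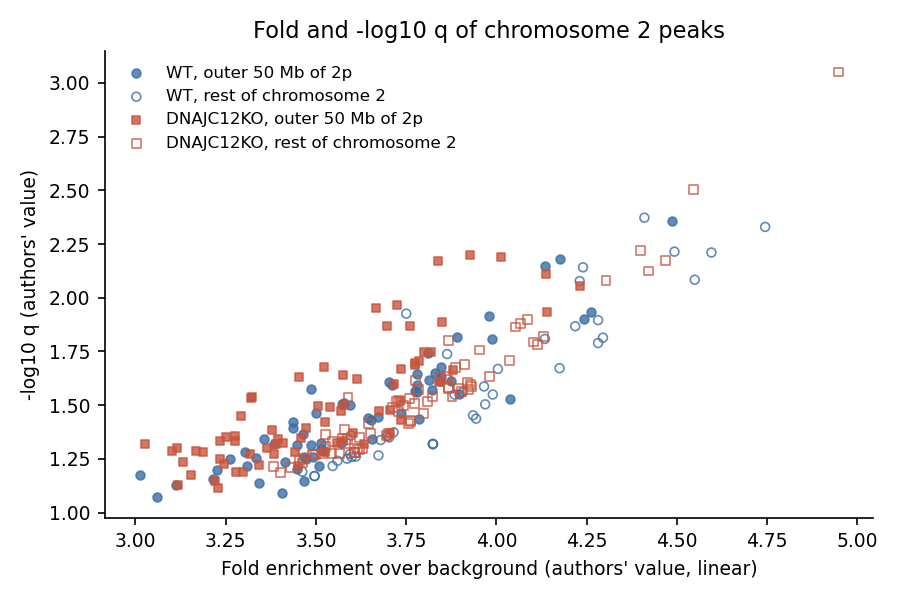
The authors' fold enrichment (linear) and −log10 q of each chromosome 2 peak, with filled symbols for the outer 50 Mb of 2p, open symbols for the rest, circles for WT and squares for DNAJC12KO. At a given −log10 q the filled symbols lie mostly to the left, at lower fold, and the peak with the highest values is an open square at fold 4.95 and −log10 q 3.05.

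The DNAJC12KO list was longer than the WT list on both arms, by less on 2p. DNAJC12KO peaks per WT peak were 1.15 on 2p and 1.89 on 2q, against 1.42 over all chromosomes. The lowest of the segment ratios was 1.11 in the outer 50 Mb of 2p and the highest was 2.18 in the outer 50 Mb of 2q. The share on 2p differed by genotype in these lists (67.0% and 55.4%), but the intervals overlap, and with 1 library per genotype the difference was not tested.

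Few individual peaks were at the same place in both lists. By an overlap of at least 1 bp, 5 of 71 WT peaks on 2p were shared, or 7.04% (2.33 to 15.7%), against 8.88% of all WT peaks. In DNAJC12KO, 5 of 82 were shared, or 6.10% (2.01 to 13.7%), against 6.31% of all. On 2q, 1 of 35 WT peaks (2.86%, 0.0723 to 14.9%) and 1 of 66 DNAJC12KO peaks (1.52%, 0.0384 to 8.16%) were shared. The 2p shares were thus near the shares of all peaks, and outer 2q had 0 of 22 and 0 of 48, which leaves upper limits of 15.4% and 7.40%. Within 10 kb of a peak of the other genotype lay 22.5% (13.5 to 34.0%) of WT peaks on 2p, below the 40.2% of all chromosomes. For DNAJC12KO the 2p share was 24.4% (15.6 to 35.1%), an interval that contains the 29.7% of all chromosomes.

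The 6 shared places were mostly inside or at the far ends of genes. In RRM2, the small subunit of ribonucleotide reductase, a WT peak at chr2:10194842-10195154 (fold 3.67) overlapped a DNAJC12KO peak at chr2:10195017-10195774 (fold 3.58) by 138 bp. Where KLHL29 and ATAD2B overlap, the 279 bp WT peak at chr2:23690794-23691072 lay wholly inside a DNAJC12KO peak of 990 bp. At the far end of MAPRE3, a microtubule end-binding protein, peaks of fold 3.50 in WT and 3.28 in DNAJC12KO shared 519 bp. At CGREF1 the overlap was 78 bp, within reach of the end of KHK, the fructose kinase. At the inner edge of 2p, chr2:91518061-91518808 in WT (fold 3.75) and chr2:91518005-91518712 in DNAJC12KO (fold 4.95) shared 652 bp. The latter had the highest −log10 q of the chromosome 2 peaks of its list, 3.05, and was 73.9 kb from the nearest listed gene. The pair on 2q shared 640 bp and lay 2.96 kb beyond ANKRD36. The pairs near the centromere and beside ANKRD36 thus had the largest overlaps of the 6, and both lay outside gene records.

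**Figure D4:**
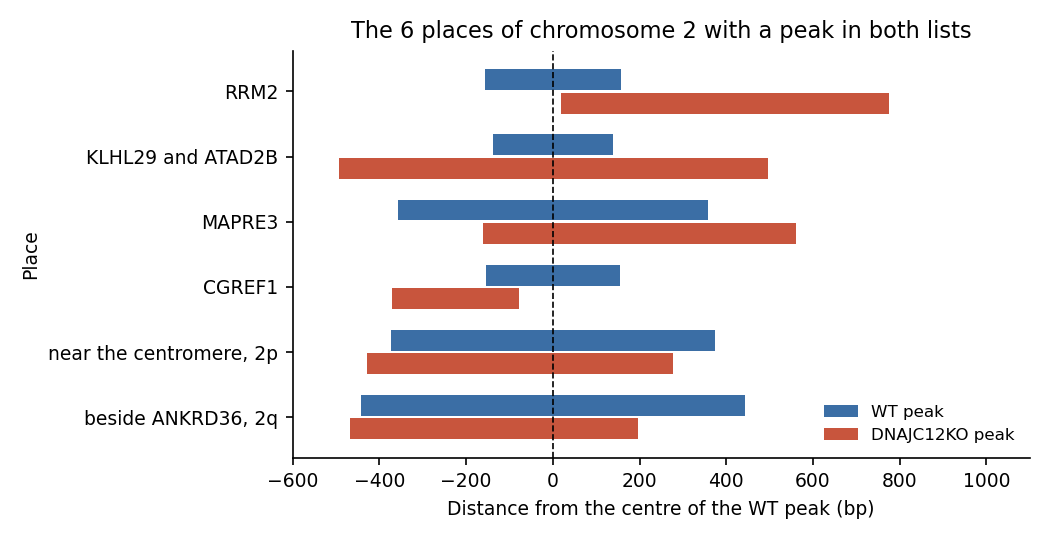
The 6 places of chromosome 2 where a WT and a DNAJC12KO peak overlap, drawn as bars to scale in bp from the centre of the WT peak. The overlaps range from 78 bp at CGREF1 to 652 bp near the centromere, and in KLHL29 and ATAD2B the WT peak lies inside the DNAJC12KO peak.

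Most 2p peaks lay in or at gene records and away from start sites, as did those of 2q. By peak centre, 35 of 71 WT peaks (49.3%) and 51 of 82 DNAJC12KO peaks (62.2%) on 2p lay inside a protein-coding gene more than 3 kb from its ends. On 2q, 68.6% of WT and 53.0% of DNAJC12KO peaks lay inside in this way. The share of each arm covered by genes was not computed. On 2p a further 10 (14.1%) and 11 (13.4%) lay at an end, within 3 kb. Outside all gene records were 15 (21.1%) and 11 (13.4%). The median distance to an annotated start was 17.0 kb in WT and 21.7 kb in DNAJC12KO on 2p. It was 15.6 and 18.1 kb on 2q, and 12.2 and 14.3 kb over the chromosomes of the start-site table. Over chromosome 2, 6 WT peaks (5.66%) and 4 DNAJC12KO peaks (2.70%) lay within 1 kb of a start, against 6.93% and 6.14% over the chromosomes of the start-site table. None of the 101 listed miRNA hairpins of chromosome 2 was overlapped, and the nearest, MIR3127, was 560 bp from a WT peak.

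Counted by gene, a peak at an end was found for 13 of 471 protein-coding genes of 2p in WT (2.76%), against 3.18% of all protein-coding genes. In DNAJC12KO it was found for 15 (3.18%), against 3.85% of all. On 2q, 6 of 783 (0.766%) and 14 (1.79%) had one. Of the 2p genes, 5 (1.06%) had one in both lists (MAPRE3, KHK, CGREF1, TRIM54 and UCN), against 0.804% of all genes. They lie in the bin from 25 to 30 Mb and rest on 3 places, since KHK and CGREF1 shared their end peaks, and so did TRIM54 and UCN. On 2q, ANKRD36 and SPEG did. With peaks anywhere in the record or at an end, 2p had 39 genes in WT (8.28%, against 6.46% of all) and 43 in DNAJC12KO (9.13%, against 8.23%), 21 of them in both (4.46%, against 2.92% of all). These 21 were all in the outer 50 Mb, where 35 of 263 genes (13.3%) in WT and 37 (14.1%) in DNAJC12KO carried a peak. The 21 were 60.0% of the WT and 56.8% of the DNAJC12KO genes with a peak in that segment. That segment was drawn after the peak positions were seen. Of the genes with a peak on all of 2p they were 53.8% and 48.8%, beside 45.2% and 35.5% over all chromosomes. These differences were not tested.

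Where the strand was known, most 2p genes with a peak at an end had it at the far end. Of 12 such genes on 2p in each list, 8 in WT and 10 in DNAJC12KO had a peak only at the far end, and 1 in each list only at the start. These genes are not all separate places, since some peaks reached the far ends of more than 1 gene. On 2q, 2 of 4 such genes in WT and 7 of 12 in DNAJC12KO had a peak only at the far end. The same split over all chromosomes was not counted. KCNF1 was the strongest 2p gene in WT by −log10 q: its record is so short that 2 WT peaks sat within reach of both ends, the stronger with a fold of 3.98 and −log10 q of 1.92, and it had no DNAJC12KO peak. ITSN2, an endocytic scaffold, followed with a WT peak just beyond its far end (fold 4.24, −log10 q 1.90), and then KIF3C, a kinesin of neurons, with fold 3.78 and −log10 q 1.64. In DNAJC12KO the first was MFSD2B, a sphingosine-1-phosphate exporter (fold 4.23, −log10 q 2.05). EPAS1, the hypoxia-inducible factor 2 alpha subunit, was next with a peak at chr2:46384145-46384440 near its far end (fold 3.52, −log10 q 1.68); the nearest WT peak was 572 kb away. On 2q, SPEG had its WT peak near the start (fold 4.60, −log10 q 2.21) and its DNAJC12KO peak at the far end (fold 3.91, −log10 q 1.69), so the same gene was marked at different places. FEV, a transcription factor of serotonin neurons, had a WT peak of fold 4.23 and none in DNAJC12KO. LIMS2, an adhesion adaptor, led the DNAJC12KO list of 2q with fold 4.05. The other genes among the 6 strongest of each arm and list had folds of 3.47 (ADCY3) and 3.65 (TRIM54) for WT on 2p, and 3.84 (TCF23) and 3.54 (KLHL29) for DNAJC12KO on 2p. On 2q they were FAM240C, GPR55 and ASTL in WT, with folds of 4.22, 4.00 and 3.50, and ATG16L1, C1QL2 and CAPN10 in DNAJC12KO, with folds of 3.87, 3.84 and 3.93.

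Some genes of distal 2p held several peaks each, but the longer NBAS (782 kb) and ALK (729 kb) held 0 in both lists. HPCAL1, a neuronal calcium sensor, had 3 peaks in each list, and 1 of its WT peaks, at chr2:10387862-10388343, had the highest −log10 q of the WT peaks of 2p (fold 4.49, −log10 q 2.36). GREB1, an oestrogen-responsive gene, had 2 WT and 3 DNAJC12KO peaks. KLHL29, a kelch protein, had 2 and 4, and its overlapping neighbour ATAD2B, a bromodomain protein, had 1 and 3. DNMT3A had 2 and 4. EFR3B, which anchors a lipid kinase at the plasma membrane, had 0 WT and 4 DNAJC12KO peaks, the nearest WT peak being 124 kb away. KIF1A, an axonal transport kinesin, was the only 2q gene with at least 3 peaks in a list, with 1 WT and 5 DNAJC12KO peaks, and held the strongest DNAJC12KO peak of 2q (fold 4.55, −log10 q 2.51). Other strong peaks were in POLR1A, the RNA polymerase I subunit (WT, fold 4.74, −log10 q 2.33), SDC1, a cell surface proteoglycan (DNAJC12KO, fold 3.93), and STK25, a kinase of 2q (WT, fold 4.41, −log10 q 2.37). A WT peak 38.9 kb from HS1BP3 (fold 4.18) and a DNAJC12KO peak in ATP6V1C2, a proton pump subunit (fold 4.01), completed the 3 strongest of each list on 2p by −log10 q. On 2q these were B3GALT1, a glycosyltransferase, in WT (fold 4.49), and INPP4A, a phosphoinositide phosphatase, and RAMP1, a receptor partner of calcitonin-family peptides, in DNAJC12KO (fold 4.40 and 4.47).

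**Figure D5:**
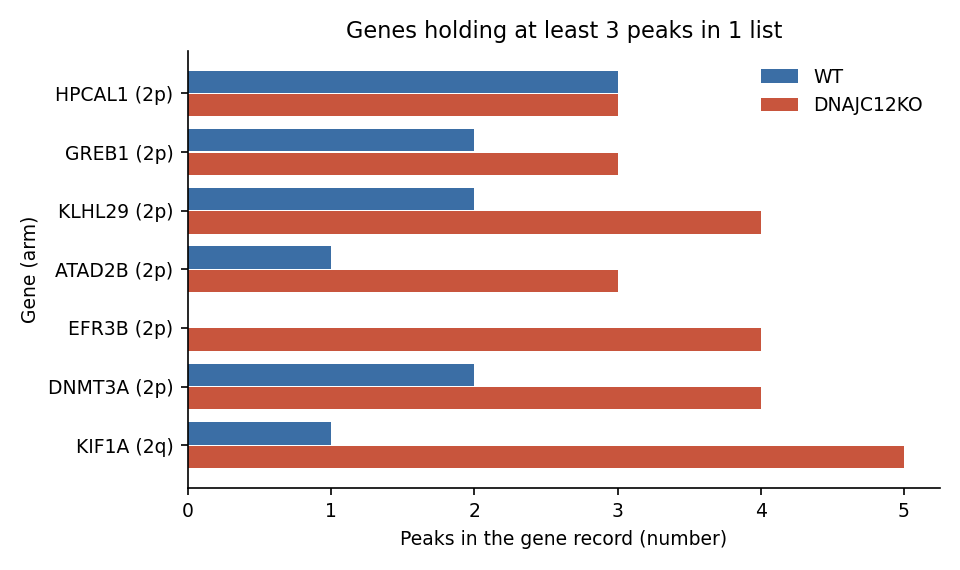
Number of WT and DNAJC12KO peaks in the gene record for 7 chromosome 2 genes with at least 3 peaks in 1 list. HPCAL1 has 3 in each list, EFR3B has 4 in DNAJC12KO and 0 in WT, and KIF1A has 1 and 5.

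Gene groups of the chromosome were touched in a minority of their members. Of 28 neuroblastoma and oncogene-related genes of 2p, 4 had a peak inside or at an end in WT (RRM2, GREB1, DNMT3A and CAD) and 7 in DNAJC12KO, among them the same 4, TMEM214 and EPAS1. CAD, the enzyme that starts pyrimidine synthesis, had a WT peak of fold 3.44 and DNAJC12KO peaks of up to 3.76. Of 47 homeobox and other developmental factors, 4 in WT and 1 in DNAJC12KO carried a peak, GLI2, a hedgehog effector, in both. Of 50 neuronal and synaptic genes, 5 in WT (KCNF1, RTN4, KIF5C, SLC4A3 and KIF1A) and 2 in DNAJC12KO (SNTG2 and KIF1A) did. KIF5C, a kinesin heavy chain, had a WT peak of fold 4.24 and −log10 q 2.14. The chromatin group had 4 of 29 genes in WT and 6 in DNAJC12KO, with ATAD2B, DNMT3A, HDAC4 and ING5 in both and TET3, a 5-methylcytosine dioxygenase, and PASK in DNAJC12KO. HDAC4 and ING5 were the members with peaks among 5 writers, erasers and binders of lactylation and acetylation, all on 2q. Of 28 matrix and adhesion genes, 4 in each list carried a peak. Among them were PXDN, COL6A3 and SNED1 in WT, and DYSF, FBLN7, TNS1 and CAPN10 in DNAJC12KO. Of 38 metabolic genes, 6 in WT and 4 in DNAJC12KO did, KHK and CAD in both; SLC5A6, a vitamin transporter, had a WT peak of fold 4.13. These shares are read beside the 6.46% (WT) and 8.23% (DNAJC12KO) of all protein-coding genes, and several groups hold only a few members with a peak. For the neuroblastoma and oncogene-related group, all on 2p, the nearer reference is the 8.28% and 9.13% of 2p genes. Its members named above lie in the outer 50 Mb of 2p, where 13.3% and 14.1% of genes carried a peak. Whether any group differs from its surroundings was not tested.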

How the data were processed

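H4K5la ChIP-seq libraries and inputs came from formaldehyde-fixed, sonicated SH-SY5Y cells, per the labels' protocols. MACS2 2.2.6 and hg38 are named in the submitters' processing notes; no aligner, filter, peak-calling option, control or spike-in scaling was stated in the sources used here. The deposited lists give for each peak the authors' linear fold enrichment and the authors' −log10 p and −log10 q values. Sample labels name the same list for an input and its H4K5la library, and it was taken as the latter's. Of the 4 libraries, no counts or signal were used, so depth is unknown. There were 0 columns of other samples.

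From these lists, peaks were counted by arm, by bin and by gene with Python 3.11.15, pandas 2.3.3, numpy 2.4.6 and scipy 1.17.1, and drawn with matplotlib 3.10.9. Gene records are from RefSeq GRCh38.p14, and no coordinates were converted. A peak was at a gene's end when it overlapped 3 kb around either end by at least 1 bp; start-site distances used a promoter table that matched 1108 of the 1254 protein-coding genes of chromosome 2 and does not cover every chromosome. Local background b was solved from fold = (k + 1)/(b + 1) and the Poisson probability of more than k fragments. The solving step was checked on values simulated from the same formula. That check does not cover the use of values averaged over a peak. Genes were named where they were in a set of 8 chosen 2p genes, had a peak at an end in both lists, were among the 6 strongest ends or 3 strongest peaks per arm and list by −log10 q, held at least 3 peaks in 1 list, or were among up to 4 members of each of 7 gene lists; some further members with a peak, and genes in gaps, are named as examples chosen after their values were seen. The members and lists were chosen with earlier results of these data known. Alternatives were a −log10 q of at least 2, a fold of at least 4, lists of equal length, other bins, windows, overlaps and denominators, and peaks merged within 10 kb. Some genes that meet the naming rule are not reported here.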

Additional observations from a re-analysis of the deposited data

How the results depend on the processing

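No paired analysis was possible because each genotype had 1 H4K5la library and the groups shared 1 replicate number. With a fold of at least 4, the ratio of 2p to 2q density was 0.866 in WT and 0.670 in DNAJC12KO, without an interval. The 2p share of peaks was then 35% of 20 and 29.4% of 17. With a −log10 q of at least 2, the WT ratio was 1.07 (1.93 in DNAJC12KO, over 11 peaks), the WT share 40% of 10 peaks and the WT inferred background on 2q 1.77 over 6 peaks; shared peaks were then 0 on both arms in both lists. Under that limit genes with a peak at an end numbered 0 (2p, WT), 1 (2p, DNAJC12KO), 2 (2q, WT) and 0 (2q, DNAJC12KO). The cause of these changes was not tested, beyond the few peaks left. With lists of equal length, 7 genes of 2p in DNAJC12KO had a peak at an end. The DNAJC12KO share on 2p was then 50% of 92 peaks, and the ratio of 2p to 2q density was 1.61.

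The densest 5 Mb bins held 3.2 (WT) and 4.8 (DNAJC12KO) peaks per Mb on 2p and 2.2 and 3.8 on 2q. In 2 Mb bins these were 6 and 7 on 2p and 5.5 and 9.5 on 2q, and in 10 Mb bins 1.1 and 2.1 on 2q. Within 10 kb, 22.5% (WT) and 24.4% (DNAJC12KO) of 2p peaks and 22.9% and 12.1% of 2q peaks lay near the other list. Genes with a peak at an end on 2p numbered 5 and 4 within 1 kb, 33 and 29 within 10 kb, and 39 and 43 anywhere. On 2q, DNAJC12KO had 8 within 1 kb, and the counts were 23 and 38 within 10 kb and 30 and 45 anywhere. An outer part of 40 Mb, chosen after seeing the data, left 16 WT and 17 DNAJC12KO peaks on inner 2p. In the remaining 49 comparisons with an alternative the value moved by less than its counting interval or stayed within 1.5 times. Among these, the WT values with lists of equal length could not change, because the WT list was the shorter and was left whole. Depth is unknown, so its effect was not tested, and with 1 library per genotype no value has a replicate.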
